A study of Mus musculus with 7 samples.

Results

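The replication-dependent histone genes of CD43-depleted mouse splenocytes are described here across 7 RNA-seq libraries. They are the rows whose symbol names a histone of the clusters 1 to 4 (Hist1h, Hist2h, Hist3h and Hist4h), whose value carried the status OK in every library and whose mean was at least 1 FPKM. FPKM are fragment counts scaled by transcript length and by the size of the library. Of 23845 rows in the table, 73 carried such a symbol and 61 met the rule, with 60 different symbols. The other rows were 6 that lacked the status OK and 6 that had it but a mean below 1. Just inside the limit stood Hist1h4m with a mean of 1.32 FPKM and Hist1h1t with 1.12 FPKM, and just outside it one row of Hist2h2aa2 with 0.554 FPKM. The 61 rows hold 6 genes of the linker histone H1, 13 rows of H2A, 18 of H2B, 12 of H3 and 12 of H4.

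The cKO group has 4 libraries from C57Bl/6 mice labelled CD19creFoxp1 cKO, a conditional knockout of the forkhead factor gene Foxp1 by a Cre recombinase active in B cells, and the WT group has 3 libraries from C57Bl/6 mice labelled wild type. The labels name no Cre-only control and do not say that each library is a separate animal, so the spread behind every p-value is that between libraries and may be technical. The description labels carry a code in the usual form of an Illumina index and lane, read here as the sequencing lane: cKO 2, cKO 3 and WT 1 ran on lane 7, and cKO 1, cKO 4, WT 2 and WT 3 on lane 5. CD43 depletion removes most T and myeloid cells and leaves mainly resting B cells. No treatment, age or time is labelled for either group.

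Most histone protein is made in S phase, when new DNA must be packed into nucleosomes, each a core of H2A, H2B, H3 and H4 closed by the linker H1. The mRNAs of these genes have no introns and, unlike other mRNAs, usually no poly(A) tail: they end in a short stem-loop that the protein Slbp binds, and they are degraded when replication stops. Many near-identical gene copies lie in clusters, often as H2A and H2B genes that share 1 promoter region and are read outward. Erythroid precursors, which the spleen of mice can hold, and activated B cells both divide, while resting B cells do not. The labels state total RNA and a Nextera library kit, and whether poly(A) RNA was selected is not given in the sources used here.

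The stem-loop is the sequence feature that defines these mRNAs, so its forms are shown first. The pattern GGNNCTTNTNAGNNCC was searched on the sense strand of GENCODE M21 transcripts. It was found in 314 of 141767 transcripts, or 0.221%, and in transcripts of 41 histone genes of the set. Of 35 member genes with a transcript that runs at least 80 bases past the stop codon, 32 held it, against 0.258% of all 48528 transcripts that run that far. The exceptions were Hist2h2be, Hist1h2bc and Hist1h2bq. Capitals mark the stem and lower case the loop, 5′ to 3′ on the gene's strand, with positions in GRCm38:
stem-loop of 22 genes of H1, H2A, H2B and H3, in Hist1h1c at chr13:23739512-23739527, + strand: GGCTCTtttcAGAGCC
stem-loop of 6 genes of H1, H2B and H3: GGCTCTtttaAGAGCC
stem-loop of Hist2h2ac (H2A), chr3:96220418-96220433, - strand: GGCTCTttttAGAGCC
stem-loop of Hist1h3g (H3), chr13:23535889-23535904, + strand: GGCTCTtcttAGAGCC
stem-loop of 6 H4 genes, in Hist1h4c at chr13:23698089-23698104, - strand: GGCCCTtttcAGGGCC
stem-loop of 2 H4 genes: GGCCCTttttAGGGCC
stem-loop of Hist1h4b, chr13:23757366-23757381, + strand, and Hist1h4j (H4): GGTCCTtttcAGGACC
stem-loop of Hist1h4a (H4), chr13:23760800-23760815, - strand: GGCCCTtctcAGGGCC
The stems of H4 mRNAs differed from those of the other classes in every gene in which the pattern was found.

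Promoters are shown because the classes differ in them as well. RefSeq promoter sequences (250 bases before to 50 after the gene start, GRCm38.p6) were matched by symbol for 54 genes of the set. Sequences are printed on the gene's own strand, 5′ to 3′, and capitals mark 4 motifs searched on both strands: the octamer ATTTGCAT bound by Oct factors, the CCAAT box, the TATA box TATAAA and the H1 box AAACACA. Hist1h2bg stands for the H2A and H2B pairs with an octamer, since its window at chr13:23571150-23571449 (+ strand) overlaps that of its divergent partner Hist1h2ae. Hist2h2ac at chr3:96220831-96221130 (- strand) belongs to the pair whose members differed most in level. Hist1h1b at chr13:21780576-21780875 (- strand) stands for H1, and Hist1h4c at chr13:23698409-23698708 (- strand) is the promoter of the most abundant member:
Hist1h2bg: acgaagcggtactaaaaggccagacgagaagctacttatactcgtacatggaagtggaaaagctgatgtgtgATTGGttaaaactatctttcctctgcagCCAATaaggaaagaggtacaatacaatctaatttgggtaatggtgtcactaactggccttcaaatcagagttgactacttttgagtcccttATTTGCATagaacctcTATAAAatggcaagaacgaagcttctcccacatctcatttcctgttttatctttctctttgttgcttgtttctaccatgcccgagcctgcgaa
Hist2h2ac: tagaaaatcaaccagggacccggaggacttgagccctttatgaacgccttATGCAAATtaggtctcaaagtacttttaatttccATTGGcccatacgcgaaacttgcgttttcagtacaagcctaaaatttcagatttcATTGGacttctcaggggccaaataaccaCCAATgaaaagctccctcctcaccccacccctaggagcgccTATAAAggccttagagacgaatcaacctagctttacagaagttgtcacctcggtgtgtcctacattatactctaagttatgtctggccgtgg
Hist1h1b: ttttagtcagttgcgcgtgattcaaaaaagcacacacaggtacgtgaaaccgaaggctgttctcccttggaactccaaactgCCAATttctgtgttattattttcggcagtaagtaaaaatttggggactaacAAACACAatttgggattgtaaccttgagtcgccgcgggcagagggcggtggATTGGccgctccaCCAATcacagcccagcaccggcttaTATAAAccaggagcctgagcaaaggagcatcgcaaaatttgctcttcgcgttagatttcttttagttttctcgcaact
Hist1h4c: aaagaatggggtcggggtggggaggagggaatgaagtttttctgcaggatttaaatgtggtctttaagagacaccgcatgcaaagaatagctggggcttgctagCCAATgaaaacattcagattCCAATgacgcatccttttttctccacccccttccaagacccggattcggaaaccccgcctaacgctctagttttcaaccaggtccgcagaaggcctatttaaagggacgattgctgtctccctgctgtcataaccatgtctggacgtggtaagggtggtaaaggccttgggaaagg
The octamer lay in 6 of 13 H2A and 5 of 14 H2B promoters and in 0 of the 27 promoters of the other classes, against 1.74% of all 32851 promoters. The overlapping windows of Hist1h2bg and Hist1h2ae hold the same copy of it, as do those of Hist1h2bk and Hist1h2ah. CCAAT lay in every promoter of H1, H2A, H2B and H3 matched (43 of 43) but in 3 of 11 of H4, against 37.4% of all promoters. The H1 box was found in 5 of 6 H1 promoters, all but that of Hist1h1a, against 7.18% of all promoters. TATAAA lay in 31 of the 54, against 13.6%. TGTTTAC, a core that forkhead factors such as Foxp1 can bind, was in 1 of the 54, that of Hist4h4, against 3.65% of all promoters. A match is a description of letters in this window and not a binding site.

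**Figure D1:**
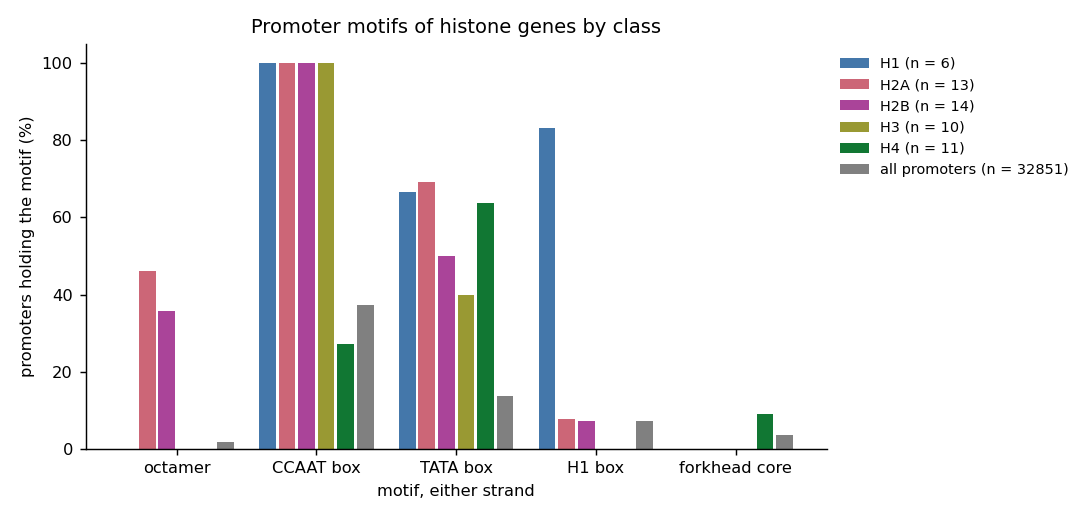
Share of promoters (vertical axis, %) that hold each of 5 motifs on either strand (horizontal axis), for the histone classes and, in grey, all 32851 promoters. The octamer bars appear in H2A and H2B alone among the classes, the H1 box bar is highest for H1, and the CCAAT bar is at 100% for H1, H2A, H2B and H3 and lower for H4.

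As facts of the whole series, 9598 to 10419 rows reached 1 FPKM in the cKO libraries and 9488 to 9738 in the WT libraries, and the files give no read counts. Foxp1 had 21.3, 18.9, 18.4 and 29.0 FPKM in cKO 1 to 4, against 33.4, 38.3 and 42.7 FPKM in WT 1 to 3, with the highest cKO value under the lowest WT value (log2 fold change -0.81, limma adjusted p = 0.159, and -0.75 with lane as a term, limma adjusted p = 0.0104). The mean log2(FPKM + 0.5) of 12 B cell markers was 6.26 to 7.48 in cKO and 7.11 to 7.73 in WT libraries, so the defining markers of the labelled cells were present throughout. Small RNA genes held 11.7% of the summed FPKM of cKO 4 and 40.0% to 59.0% of that of the other libraries.

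Histone mRNA levels differed widely between libraries and together. The median over the 61 rows was 201, 272, 497 and 48.8 FPKM in cKO 1 to 4, against 146, 61.6 and 42.4 FPKM in WT 1 to 3. cKO 3 was the highest library and WT 3 the lowest, and cKO 4 lay between WT 3 and WT 2, so the groups overlapped. Summed over the 61 rows, the cKO libraries held 20303, 29381, 50987 and 5719 FPKM and the WT libraries 15676, 7981 and 5442 FPKM. In these bulk samples, a different number of dividing cells and a different amount of histone mRNA per cell cannot be told apart.

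The order of the libraries was similar from gene to gene. In 31 of the 61 rows it ran WT 3, cKO 4, WT 2, WT 1, cKO 1, cKO 2, cKO 3 from low to high. cKO 3 was above every other library in 59 of the 61 rows, against 13.7% of all 10065 genes tested. cKO 1, cKO 2 and cKO 3 each stood above every WT library in 52 of the 61 rows, against 13.3% of all genes. cKO 4 was the exception among the cKO libraries: it lay below WT 1 in 58 rows, below WT 2 in 52 and below WT 3 in 18. WT 1, the WT library of lane 7, was above both other WT libraries in 60 of the 61 rows, against 20.2% of all genes. The ratio of cKO 3 to WT 3 had a median of 10.4 over 59 rows, since WT 3 is listed at 0 for both rows of Hist1h2bq.

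**Figure D2:**
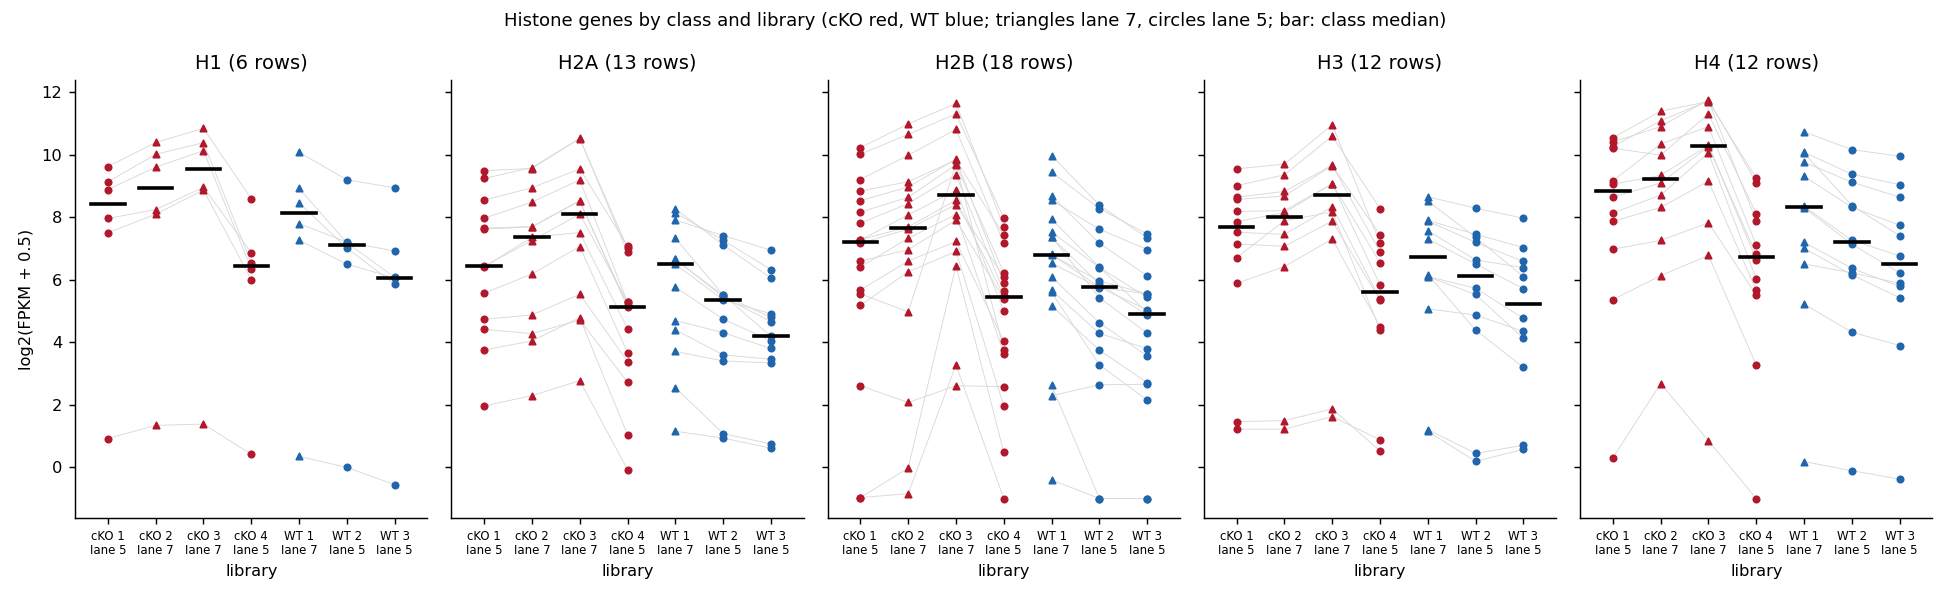
log2(FPKM + 0.5) of each histone row (points, joined within a group by gene with no order implied) in each library (horizontal axis), one panel per class; cKO red and WT blue, triangles lane 7 and circles lane 5, bars the class median. In every panel cKO 3 has the highest median, and cKO 4 lies below cKO 1 to 3 and among the WT libraries of lane 5.

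Without a covariate, genotype did not separate the histone genes at the threshold. All tests were made with limma on log2(FPKM + 0.5) over the 10065 genes tested, two-sided, with Benjamini-Hochberg adjustment over all of them and a threshold of 0.05. The fold change of cKO over WT was positive in 59 of 61 rows, against 38.5% of all genes, with a median of 1.30 against -0.09 over all genes. Hist1h1t, Hist1h4m and the Hist1h2bq row at 21833743 had at most 0.772, 0.634 and 0.257 FPKM in any WT library. They met the limit on the mean only through cKO libraries, so their positive sign adds no support. None of the 61 passed the threshold, against 1.27% of all genes higher and 0.0497% lower in cKO, and 12 had an unadjusted p under 0.05, all higher, against 9.56% of all genes. The groups did not overlap in 1 row, Hist1h1t, against 7.99% of all genes higher in cKO without overlap. Leaving out each library in turn, 0 rows passed each time. The median was then between 0.86, without cKO 3, and 1.92, without cKO 4.

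Linker histones were led by Hist1h1c, an H1 found in most tissues. Hist1h1c (chromosome 13, 23738807 to 23740367) had 787, 1343, 1838 and 383 FPKM in cKO 1 to 4, against 1079, 586 and 491 FPKM in WT 1 to 3. Here WT 1 exceeded cKO 1, and cKO 4 was the lowest of all (log2 fold change 0.46, SE 0.55, limma adjusted p = 0.918). Hist1h1a (chromosome 13, 23763668 to 23764414) had 559.7, 1032, 1337 and 91.9 FPKM in cKO, against 484, 145 and 66.9 FPKM in WT, with a fold change of 1.62 (SE 0.96). It showed the common order, with cKO 4 below both WT 1 and WT 2. Hist1h1b, whose promoter is printed above, gave 1.63 (SE 0.91), and Hist1h1e and Hist1h1d gave 0.70 and 1.01. Hist1h1t (chromosome 13, 23695811 to 23696722), the H1 of the testis, had only 1.39, 2.03, 2.11 and 0.834 FPKM in cKO, against 0.772, 0.497 and 0.180 FPKM in WT. All 4 cKO libraries were above all 3 WT libraries, and its fold change of 1.09 (SE 0.33) had the smallest adjusted p of the set, 0.199 in limma. Its mean was 1.59 FPKM in cKO and 0.483 FPKM in WT, so it met the limit on the mean only through cKO libraries. Its place in the set therefore depends on the group where it is high. The class median was 1.05.

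H2A genes had larger fold changes, with a class median of 1.58 and 13 of 13 positive. Hist1h2ab (chromosome 13, 23751088 to 23751593) had 719.8, 754, 1473 and 117 FPKM in cKO, against 308, 138 and 66.0 FPKM in WT (1.97, SE 0.83). Hist1h2ak (chromosome 13, 21753435 to 21753827) had 604, 769, 1462 and 129 FPKM in cKO, against 282, 153 and 79.5 FPKM in WT (1.85, SE 0.77, limma adjusted p = 0.431). In both genes cKO 1 to 3 exceeded all WT libraries, and cKO 4 lay between WT 3 and WT 2. Both are the most abundant of the class. Hist1h2af had the largest H2A fold change, 2.05 (SE 0.97), and Hist2h2ab the smallest, 0.55 (SE 0.44).

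H2B rows were the most varied class, with fold changes between -0.09 and 2.32. Hist2h2bb (chromosome 3, 96269700 to 96270192) was the most abundant, with 1198, 2024, 3197 and 208 FPKM in cKO, against 1005, 334 and 161 FPKM in WT (1.57, SE 0.94). Hist1h2bb (chromosome 13, 23746734 to 23747201) had 1035, 1606, 2530.2 and 251 FPKM in cKO, against 696, 309 and 176 FPKM in WT (1.59, SE 0.77). Hist1h2bc (chromosome 13, 23684199 to 23692480), one of the genes without a stem-loop in its long transcript, had 143, 196, 338 and 67.8 FPKM in cKO, against 110.4, 61.6 and 46.4 FPKM in WT. There cKO 4 was above WT 2 and WT 3, unlike in most members, and the fold change was 1.22 (SE 0.52, limma adjusted p = 0.445). Hist1h2bg, whose promoter is printed above, gave 1.10 (SE 0.57). The class median was 1.58, with 16 of 18 positive.

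Hist2h2be was the member that did not vary with the rest. It encodes an H2B variant described in mouse olfactory neurons, and its long annotated transcript holds no stem-loop pattern. It had 5.60, 3.71, 5.60 and 5.49 FPKM in cKO 1 to 4, against 4.39, 5.73 and 5.80 FPKM in WT 1 to 3. WT 3 was its highest library and cKO 2 its lowest, the reverse of the usual place of WT 3, and its fold change was -0.06 (SE 0.24, limma adjusted p = 0.963). Its divergent partner Hist2h2ac lies 276 bases away and had 374, 491, 749 and 134 FPKM in cKO, against 240.5, 170.1 and 123 FPKM in WT (1.10, SE 0.54). The mean of Hist2h2ac was 62.8 times that of Hist2h2be. Among 11 such divergent pairs within 1000 bases, 10 of them an H2A with an H2B, the ratio of the higher to the lower mean ran between 1.20 and 62.8 with a median of 2.86.

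Within H3 the 12 rows were all positive, with a median of 1.28. Hist1h3c (chromosome 13, 23745042 to 23745521) had 749, 829, 1989 and 144 FPKM in cKO, against 366, 163 and 68.0 FPKM in WT (2.02, SE 0.86). Hist1h3e (chromosome 13, 23561955 to 23562365) had 514, 655, 1545 and 309.8 FPKM in cKO, against 402, 312 and 250.2 FPKM in WT, with a fold change of 1.00 (SE 0.50). Hist1h3a and Hist1h3i, the next in level, had fold changes of 1.12 and 1.29. Hist1h3e spanned a narrower range than Hist1h3c at a similar level. Hist1h3g (chromosome 13, 23535418 to 23535909), the gene with its own stem-loop form, had 183, 174, 322 and 41.1 FPKM in cKO, against 67.9, 45.6 and 16.9 FPKM in WT (1.92, SE 0.69, limma adjusted p = 0.326). Its cKO 4 value lay below WT 1 and WT 2 and above WT 3.

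H4 had the highest levels and the smallest median fold change, 0.98, with 12 of 12 positive. Most of its genes encode the same protein. Hist1h4c (chromosome 13, 23698138 to 23698449) had 1491, 2686, 3327 and 609 FPKM in cKO, against 1697, 1145 and 991 FPKM in WT (0.44, SE 0.58). WT 1 exceeded cKO 1 and cKO 4 was the lowest library, and within lane 5 its fold change was -0.16. Hist1h4d (chromosome 13, 23581602 to 23581913) had 1357, 1912, 3469.6 and 551 FPKM in cKO, against 1083, 664 and 526 FPKM in WT (1.04, SE 0.59). Hist1h4f and Hist1h4h, at similar levels, gave 1.63 and 0.73. Hist1h4b (chromosome 13, 23757021 to 23757332), with the GGTCCT stem, had 281, 417, 1067 and 64.9 FPKM in cKO, against 128, 70.9 and 42.4 FPKM in WT (2.04, SE 0.82, limma adjusted p = 0.405). Here all of cKO 1 to 3 exceeded the WT libraries.

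By position, the rows fell into 5 stretches of 4 chromosomes in GRCm38 coordinates. The 20 rows of Hist1 at chromosome 13, 21715763 to 22043610, had a median fold change of 1.61, and the 29 at 23531044 to 23764414 one of 1.22. The 8 Hist2 rows (chromosome 3, 96219916 to 96270192) had 0.81, the 3 Hist3 rows (chromosome 11, 58948911 to 58956674) 1.30 and Hist4h4 (chromosome 6, 136801553 to 136804431) 0.91. In Hist3, Hist3h2a had 85.9, 152, 274 and 38.3 FPKM in cKO, against 89.9, 40.4 and 29.5 FPKM in WT, and Hist3h2ba and the row labelled as a pseudogene, Hist3h2bb-ps, followed with fold changes of 1.61 and 1.30. Hist4h4 had 40.6, 69.5, 109 and 9.16 FPKM in cKO, against 36.8, 19.5 and 14.4 FPKM in WT. The 27 rows whose position in the table covers the coding sequence alone had a median of 1.60, and the 34 with a longer span 1.11. Such models differ in the length that FPKM divide by, and no test was made between these groups of rows.

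With lane as a term, 6 of the 61 rows rose in cKO and none fell, against 9.59% of all genes higher and 1.19% lower, a share close to that of all genes. These were Hist1h1t at 0.97 (limma adjusted p = 0.00818), Hist1h3b at 1.80 (0.0278), Hist1h2bn at 1.62 (0.0422), Hist1h3g at 1.69 (0.0434), Hist1h2bc at 1.01 (0.0442) and Hist1h4b at 1.73 (0.0459). Hist1h3b (chromosome 13, 23752380 to 23752790) had 104, 236, 287 and 20.5 FPKM in cKO, against 71.2, 20.5 and 8.65 FPKM in WT. Hist1h2bn (chromosome 13, 21754123 to 21754503) had 590.1, 1010.4, 1795 and 144 FPKM in cKO, against 408, 144 and 69.1 FPKM in WT. In both genes cKO 4 stood near WT 2, its neighbour in lane 5. The median over the 61 rows was 1.07, against -0.00 over all genes, and 42 had an unadjusted p under 0.05, all higher, against 17.8% of all genes.

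That count depended on single libraries. With lane as a term and without cKO 4, 52 rows rose, against 14.1% of all genes, and without WT 2 it was 32, against 11% of all genes. Without cKO 1 the count was 14, against 10.5%. It was 4 without WT 3 (7.24%), 2 without cKO 2 (9.13%), 1 without cKO 3 (6.49%) and 1 without WT 1 (7.42%). Hist1h1t was among the rows that passed in each of these 7 fits. It entered the tests only through its cKO values, so its passing adds no support. With each library centred on its median 1 row passed, Hist1h1t, against 9.46% of all genes. With quantile normalization 0 did, against 8.09%, and 17 were higher at an unadjusted p under 0.05 in limma, against 13.5% of all genes. Within lane 5 (cKO 1 and 4, WT 2 and 3) the median was 0.84 and 0 rows passed, against 5.83% of all genes higher, with 4 at an unadjusted p under 0.05 in limma, against 13.5%. Within lane 7 (cKO 2 and 3, WT 1) the median was 1.34, with 60 of 61 rows positive. These are values with no test of their own, since lane 7 holds 1 WT library.

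The difference in the genotype effect between the lanes was itself tested. None of the 61 rows passed (limma interaction term, smallest adjusted p = 0.992), against 0.0199% of all genes higher and 0.0298% lower, and 0 had an unadjusted p under 0.05. The median of that difference, lane 7 minus lane 5, was 0.41, against -0.22 over all genes. Its lane 7 side rests on 1 WT library, and its SE was 0.69 for Hist1h1c and 1.06 for Hist1h2ab. The absence of calls therefore does not show that the genotype effect is alike in both lanes.

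Between lanes the histone genes stood opposite to most of the transcriptome. With genotype as a term, 58 of 61 rows rose in lane 7 and none fell, against 8.67% of all genes higher and 58.2% lower, with a median of 1.63 against -0.50 over all genes. Hist3h2bb-ps had the smallest adjusted p, with 96.2, 149 and 50.0 FPKM in cKO 2, cKO 3 and WT 1 of lane 7, against 50.5, 15.9, 19.0 and 13.4 FPKM in cKO 1, cKO 4, WT 2 and WT 3 of lane 5 (1.88, SE 0.34, limma adjusted p = 0.00111). cKO 1 of lane 5 was as high there as WT 1 of lane 7, so the lanes overlapped. Genotype aside, lane 7 lay above lane 5 without overlap in 6 rows, against 2.83% of all genes: Hist1h1c, Hist3h2a, Hist1h2bl, Hist1h4c, Hist2h4 and a row of Hist1h2bq. With each library centred on its median, which moves the median of all genes to -0.01, the histone median was 2.13 and 56 rows rose, against 24.3% of all genes higher and 23.9% lower.

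The lane difference varied by class, with medians of 1.37 for H1, 1.64 for H2A, 2.12 for H2B, 1.23 for H3 and 1.67 for H4. Hist1h4c had 2686, 3327 and 1697 FPKM in cKO 2, cKO 3 and WT 1 of lane 7, against 1491, 609, 1145 and 991 FPKM in cKO 1, cKO 4, WT 2 and WT 3 of lane 5. Each lane 7 library exceeded each lane 5 library, and its lane coefficient was 1.26 (SE 0.39, limma adjusted p = 0.0145), while its genotype coefficient in the same fit was 0.23. Hist2h4, another H4 gene, gave 2.00 (SE 0.46). The 3 rows that did not pass were Hist2h2ab at 0.69 (limma adjusted p = 0.0836), a row of Hist1h2bq at 2.31 (0.103) and Hist2h2be at -0.30 (0.124). The count was 22 under limma's robust option, against 7.44% of all genes higher, and 37 under quantile normalization, against 18%. Without cKO 3 it was 34 higher and 1 lower, against 6.03% and 55%. Without a filter on low values 23508 rows were tested and 2 histone rows passed, against 2.23%. Nothing in the labels tells how libraries were assigned to lanes, so the sequencing lane and any difference in preparation cannot be told apart.

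**Figure D3:**
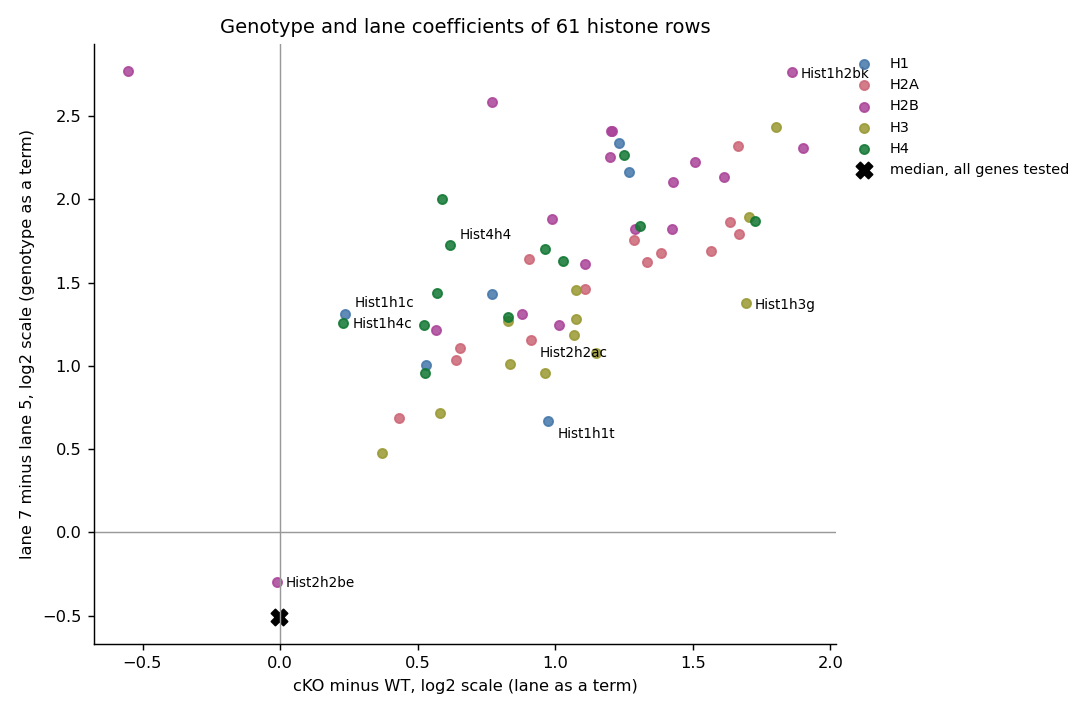
Coefficients of each histone row in 1 limma fit with both terms: cKO minus WT (horizontal, log2 scale) and lane 7 minus lane 5 (vertical, log2 scale), coloured by class, with the median of all genes tested as a cross. All but a Hist1h2bq row lie above and right of the cross or beside it, Hist2h2be at -0.01 and -0.30 stands apart, and Hist1h4c and Hist1h1c have a lane coefficient above 1 with a genotype coefficient near 0.24.

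A few H2B rows were high in 1 or 2 libraries and low elsewhere. Hist1h2bk had 46.4, 30.9, 829 and 13.0 FPKM in cKO 1 to 4, against 47.9, 9.20 and 3.93 FPKM in WT 1 to 3. One Hist1h2bq row (chromosome 13, 21833743 to 21837530) had 86.6 FPKM in cKO 3 and at most 0.901 FPKM elsewhere. The other (chromosome 13, 21806412 to 21810199) had 9.17 FPKM in cKO 3 and 5.66 FPKM in WT 1, with at most 0.0573 FPKM elsewhere. Both Hist1h2bq rows span the same length and carry the same symbol, and gave fold changes of 2.28 and -0.09. Histone genes of a class are near-identical in their coding sequence, and how the authors' counting divided fragments among such copies is not given in the sources used here, so these values are uncertain. With the rows of Hist1h2bq and with Hist1h4m, which overlaps a row of Hist1h4n, left out, the medians over the other 58 rows were 1.30 for genotype and 1.63 for lane.

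The classes did not contribute alike to the total in the 2 genotypes. H4 made up 37.7 ± 0.793% of the summed FPKM of the 61 rows in cKO and 44.7 ± 3.98% in WT (SD, n = 4 and 3). H1 held 11.7 ± 1.24% in cKO and 14.4 ± 0.541% in WT, and H2A 11.3 ± 1.18% in cKO and 8.49 ± 0.681% in WT. In these 3 classes the groups did not overlap, cKO 4 included: the H2A share ran between 10.1% and 12.9% in cKO and between 7.70% and 8.93% in WT. The shares of H2B, 24.5 ± 2.67% in cKO and 19.2 ± 4.53% in WT, and of H3, 14.8 ± 2.38% in cKO and 13.2 ± 1.36% in WT, overlapped. Within lane 7 the H2A share was 11.0% and 11.2% in cKO 2 and 3, against 8.93% in WT 1, and within lane 5 it was 12.9% and 10.1% in cKO 1 and 4, against 8.83% and 7.70% in WT 2 and 3.

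The separation of the 3 shares was also there without Hist1h4c, the largest single member, when H4 held 31.9 ± 0.860% in cKO and 35.4 ± 1.87% in WT, H1 12.8 ± 1.61% in cKO and 16.8 ± 1.05% in WT, and H2A 12.3 ± 1.13% in cKO and 9.91 ± 0.455% in WT. For H4 and H2A it was there among the 27 coding-span rows as well, with H4 at 56.0 ± 2.10% in cKO and 65.0 ± 4.42% in WT. For H1, which has 1 such row, it was not: the share was 4.18 ± 1.04% in cKO and 3.25 ± 1.24% in WT, and the groups overlapped. Hist1h1c, the largest H1 member with a mean of 930 FPKM, is absent from the coding-span rows and was kept in every other setting. Of the summed H1 FPKM of 2249, 3730, 5261 and 736 in cKO 1 to 4, Hist1h1c held 787, 1343, 1838 and 383. In WT 1 to 3 it held 1079, 586 and 491 of 2291, 1097 and 802 FPKM. With Hist1h1c taken out of these sums and of the totals, the H1 shares of the groups overlap. The H1 separation therefore rests on that gene. The separation of shares was absent when class medians on the log2 scale replaced sums. The H2A median minus the H4 median was -2.02 ± 0.357 in cKO and -1.99 ± 0.270 in WT. Shares add up to a fixed total, so they do not vary independently, and no test was made of them.

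**Figure D4:**
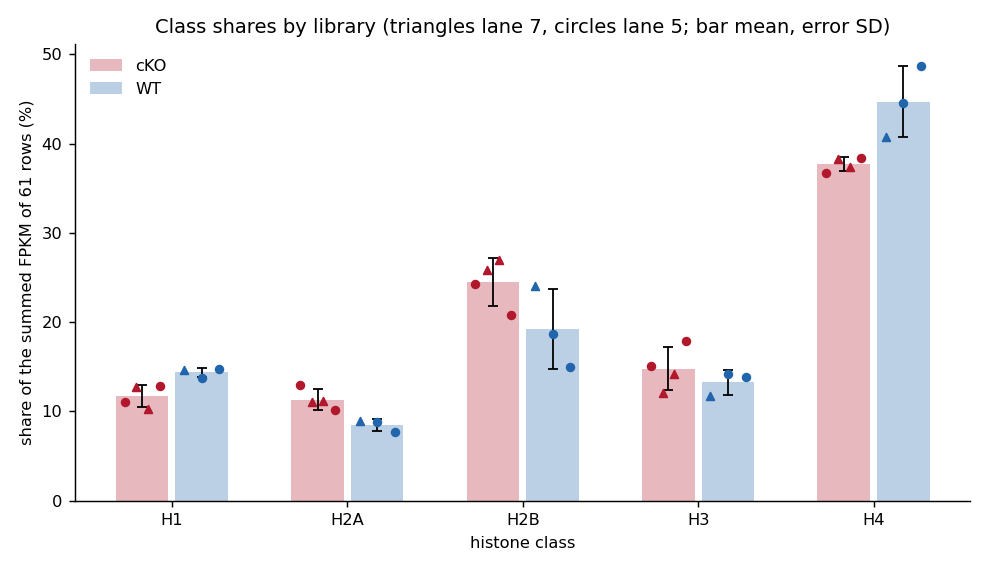
Share of each class in the summed FPKM of the 61 histone rows (vertical axis, %), with cKO in red at the left and WT in blue at the right of each class; points are libraries (triangles lane 7, circles lane 5), bars the mean and error bars the SD over 4 and 3 libraries. The H1 and H4 points of cKO lie below those of WT and the H2A points above them.

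Genes that serve in making or processing histone mRNA had a median fold change by genotype near that of all genes. Of 28 tested genes of this list, which includes Slbp, the coactivator Npat and subunits of the U7 particle and cleavage complex, 10 had a positive fold change of cKO over WT, with a median of -0.06 against -0.09 over all genes, and none passed limma's threshold. With lane as a term 1 of the 28 rose, against 9.59% of all genes: Ccne1 (1.24, limma adjusted p = 0.0305), a cyclin that activates Cdk2 at the start of S phase. In lane 7 against lane 5, 2 rose and 22 fell, against 8.67% of all genes higher and 58.2% lower, with a median of -0.59 against -0.50 over all genes. Slbp had 34.1, 19.9, 33.5 and 26.1 FPKM in cKO 1 to 4, against 16.5, 24.9 and 23.1 FPKM in WT 1 to 3 (0.38, limma adjusted p = 0.762). Npat had 4.55, 3.20, 3.42 and 5.75 FPKM in cKO, against 3.15, 4.39 and 4.30 FPKM in WT (0.07, limma adjusted p = 0.962). In both genes WT 1 was the lowest library and the groups overlapped. Among the most abundant genes of the list, Pou2af1, a coactivator of Oct factors in B cells, and the factor Yy1 fell in lane 7 with coefficients of -0.96 and -0.62 (limma adjusted p = 0.00145 and 0.00528), and by genotype they had -0.40 and -0.02.

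Histone variants made outside S phase were mixed. Of 9 tested, 5 were positive by genotype with a median of 0.10 and none passed. With lane as a term 2 rose, against 9.59% of all genes: H2afz (0.69, limma adjusted p = 0.00991) and H1f0 (0.82, 0.0401). H2afx, whose mRNA is known to be made both with a stem-loop and with a poly(A) tail, had 213, 329, 562 and 41.3 FPKM in cKO 1 to 4, against 143, 52.8 and 25.3 FPKM in WT 1 to 3. Its libraries stood in the same order as in 31 of the histone rows, and it rose in lane 7 (2.09, limma adjusted p = 0.00332). H3f3a, a source of H3.3, had 198, 306, 262 and 193 FPKM in cKO, against 337, 196 and 213 FPKM in WT (-0.03), and H3f3b, another such gene, had a fold change of -0.14. Of 24 histone chaperone genes 16 were positive with a median of 0.07 and none passed. The most abundant, Ssrp1 and Dnajc9, had -0.12 and -0.43. With lane as a term 2 of the 24 rose, a share near the 9.59% of all genes. These were Asf1b (1.07, limma adjusted p = 0.0338) and Chaf1a (1.02, 0.0246), which deliver histones during replication. In lane 7 against lane 5, 1 of the 24 rose and 13 fell, against 8.67% of all genes higher and 58.2% lower.

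Mitosis genes and erythroid markers were high and low in much the same libraries as the histone genes. All 25 mitosis genes tested had a positive fold change by genotype, with a median of 1.59 and 0 past limma's threshold, 10 rose with lane as a term, and 25 rose in lane 7. Over all genes, 1.27% rose by genotype, 9.59% with lane as a term and 8.67% in lane 7. Their mean log2(FPKM + 0.5) was 3.62, 3.71, 4.50 and 1.97 in cKO 1 to 4, against 3.05, 1.88 and 1.00 in WT 1 to 3. cKO 3 was highest and WT 3 lowest, as for the histone genes. The proliferation marker gene Mki67 had 74.9, 71.6, 119.8 and 9.36 FPKM in cKO, against 35.2, 11.8 and 3.85 FPKM in WT (2.02), and Ube2c, which serves in mitotic exit, gave 1.93. For 39 genes of DNA replication and S phase the score was 3.52, 3.17, 3.85 and 2.79 in cKO, against 2.83, 2.69 and 2.36 in WT, and 35 were positive with a median of 0.60 and none past the threshold. With lane as a term 10 of these 39 rose, while the 2 most abundant, the replication clamp gene Pcna (0.42, limma adjusted p = 0.135) and the cyclin gene Ccna2 (1.63, 0.0599), did not pass. In lane 7 both rose, by 0.61 and 1.81. Of the 39 genes 9 rose and 3 fell there, against 8.67% of all genes higher and 58.2% lower, with a median of 0.32.

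The erythroid marker score put the 7 libraries in exactly the order of the histone median. It was 5.73, 6.11, 6.88 and 2.20 in cKO 1 to 4, against 5.14, 3.01 and 1.60 in WT 1 to 3. The order of the mitosis score differed from that of the histone median only in that cKO 4 (1.97) stood just above WT 2 (1.88). The summed FPKM of the 14 erythroid markers tested ran between 109 and 3293 in cKO and between 84.6 and 1068 in WT, with none at 0 in any library. All 14 were positive by genotype with a median of 1.98 and 0 passed limma's threshold. With lane as a term 1 of the 14 rose, against 9.59% of all genes, and 13 rose in lane 7, against 8.67%. Slc4a1, the anion exchanger of red cells, had 333, 497, 881 and 23.5 FPKM in cKO, against 222, 55.4 and 15.8 FPKM in WT, and Alas2, of heme synthesis, had a fold change of 1.41. Monocyte, macrophage and dendritic markers took another order, with scores of 4.64, 4.68, 4.97 and 4.94 in cKO, against 3.65, 2.84 and 2.72 in WT: cKO 4 was second highest. Of these markers 8 of 23 rose by genotype without a covariate and 23 with lane as a term, against 1.27% and 9.59% of all genes. Their summed FPKM was 1256 to 1771 in cKO and 335 to 703 in WT, with none of those tested at 0. Lyz2 and Tyrobp of this list rose without a covariate, by 1.80 and 1.39 (limma adjusted p = 0.0447 for both).

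Of the other lists, neutrophil markers rose in 4 of 9 genes without a covariate, against 1.27% of all genes, with a median of 1.73. S100a8 was among them at 1.87, and S100a9 gave 1.73 (limma adjusted p = 0.0529). Of 8 NK cell markers 1 rose, Gzma (1.69, limma adjusted p = 0.0447), with Klrd1 at 1.56. T cell markers were positive in 11 of 12 with a median of 0.78 and none passed, and Cd4 and Lck gave 1.25 and -0.14. Platelet markers were positive in 7 of 7 with a median of 1.16 and none passed, and Tubb1 and Ppbp gave 1.52 and 1.16. Plasma cell and germinal centre markers were positive in 5 of 11 with a median of -0.07 and none passed, and Xbp1 and Irf4 gave -0.07 and -0.36. B cell markers were positive in 0 of 12 with a median of -0.59, and none passed without a covariate. With lane as a term 3 of the 12 fell, against 1.19% of all genes lower. Cd74 and Cd79b gave -0.48 and -0.75. With lane as a term, 8 of 9 neutrophil, 7 of 8 NK cell, 10 of 12 T cell, 5 of 7 platelet and 3 of 11 plasma cell and germinal centre markers rose, and none of them fell, against 9.59% of all genes higher. The summed FPKM of the B cell markers was 2993 to 6914 in cKO and 4887 to 7558 in WT, and of these lists only the erythroid score repeated the histone order of libraries. The part of any of these cells in the histone values was not tested.

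**Figure D5:**
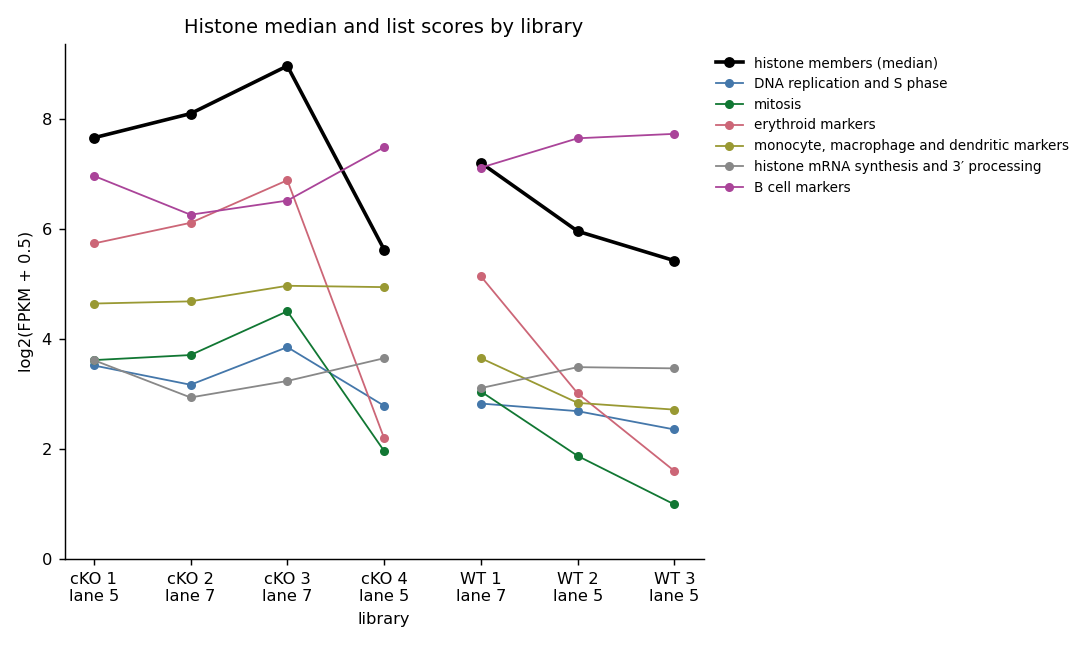
Median log2(FPKM + 0.5) of the 61 histone rows (black) and mean log2(FPKM + 0.5) of 6 gene lists (colours) in each library (horizontal axis); lines join a list within a group and imply no order. The histone, mitosis and erythroid lines are highest in cKO 3 and drop at cKO 4, while the monocyte line stays high at cKO 4 and the B cell line is higher there than in cKO 1 to 3.

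In the authors' deposited table of a comparison between arms named q1 and q2, 58 of the histone rows had a single row with the status OK. Of these, 48 had a q-value under 0.05 with the higher level in q2 and 0 with the lower, against 14.1% of all 12100 rows higher in q2. No header or label says which genotype q2 is. The 10 that the authors' deposited table does not call were Hist1h1c, Hist1h1d, Hist1h1e, Hist2h2ab, Hist1h2be, Hist2h2be, Hist2h3c1, Hist2h3c2, Hist1h4c and Hist1h4h, with q-values between 0.122 (Hist1h4h) and 0.980 (Hist2h2be). In the limma fit their fold changes of cKO over WT were at most 1.01.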

How the data were processed

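RNA-seq of 7 libraries was analysed. The authors deposited FPKM for each gene in every library, with a flag for whether the estimate succeeded. Per the submitters' processing notes TopHat2, Cufflinks and Cuffdiff were used and the build was mm9. Of 21440 symbols that could be matched once, 99.5% overlap the gene of that name in GRCm38 coordinates, so positions are given as GRCm38. The authors' deposited comparison table gives q-values and a test statistic, a score without a stated direction of its arms. It was used only as stated in its sentences.

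Genes with status OK in all libraries and a mean of at least 1 FPKM (10065) entered the tests, made on log2(FPKM + 0.5) with limma 3.58.1 under R 4.3.3, with a trend in the variance and Benjamini-Hochberg adjustment, after a check on simulated data. A fold change on this scale understates the change of low genes. The files hold no counts, so depth is unknown and no interval from counting is given. Fits were genotype alone, genotype with lane, lane with genotype and their interaction.

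The genes described and the lists were chosen with earlier results of these data known. Named were, per class, the 4 rows of highest mean and the one of smallest p, the 6 of smallest p with lane, all of clusters 3 and 4, Foxp1, Slbp, Npat and the 2 most abundant genes of each list. Others, such as Hist2h2be, Hist2h2ab, Hist2h4, Hist1h2bk, Hist1h2bq, H2afx and list genes past a threshold, were named after their values were seen. Stem-loops were searched in GENCODE M21 transcripts and promoters are from RefSeq.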

Additional observations from a re-analysis of the deposited data

Results flagged for a closer look

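Some histone rows outside the set, which lacked the status OK in 1 or more libraries, had their highest value in a cKO library. A row of Hist1h4n (chromosome 13, 21831847 to 21832158) reached 108 FPKM in cKO 3 and at most 0.458 FPKM in the other cKO libraries, against at most 0.136 FPKM in WT. A row of Hist2h2aa1 (chromosome 3, 96239716 to 96240293) reached 147 FPKM in cKO 3, against at most 0.0757 FPKM in WT. The other Hist2h2aa1 row had 1.08 FPKM in cKO 1 and 0.241 FPKM in cKO 4, and a row of Hist1h2ap had 0.401 FPKM in cKO 1 and 1.98 FPKM in cKO 3, against at most 0.0362 FPKM in WT. They stand out because these values lie above every WT library in rows that no comparison used. Where the status is not OK the value may be a failed estimate.

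Among the 34 values checked in the cKO group, none lay far enough from the others to pass Dixon's 95% critical value for 4 samples. These are fewer than the histone rows of the set, and neither the rows checked nor the scale used is given here. The check therefore does not show that every row is free of an outlying library. Hist1h2bk had 829 FPKM in cKO 3 and at most 46.4 FPKM in the other cKO libraries. A row of Hist1h2bq had 86.6 FPKM in cKO 3 and at most 0.901 FPKM in the other cKO libraries. The WT group has too few libraries for that test.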

How the results depend on the processing

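The median fold change of the histone rows kept its positive direction in every alternative run, and leaving out 1 library gave 0.86 to 1.92 without a covariate and 0.66 to 1.59 with lane as a term. The number of rows passing for cKO minus WT was 0 without a covariate in each alternative that used all libraries, and 0 without each library in turn, with 1 to 56 rows at an unadjusted p under 0.05 in limma. It was 6 with lane as a term and 1 when centred with lane as a term. Within lane 7 it was 20, but with 1 WT library that fit has 1 residual degree of freedom and its spread is a value shared over genes, so this count is not a test to set beside the others. Leaving out 1 library with lane as a term gave counts of 1 (without cKO 3 or WT 1) to 52 (without cKO 4). The count was 32 without WT 2 and 14 without cKO 1. For lane 7 minus lane 5 the count of 58 became 2 without a filter on low values, 22 with robust variance estimation and 37 with quantile normalization, and leaving out 1 library gave 35 to 60. For the difference between lanes it was 0 to 2 on leaving out 1 library; without WT 1 it could not be fitted. Hist1h4c reversed to -0.16 within lane 5, and to the same -0.16 without WT 1 with lane as a term, when lane 5 alone informs genotype. For the other changes the cause was not tested. Of the values of single genes under alternatives, 822 kept direction and side of the threshold, 74 newly passed it and 2, both of Hist1h4c, reversed.

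With the replicate numbers of the titles as a replicate block, 0 rows passed for cKO minus WT (median 1.92), with 57 higher at an unadjusted p under 0.05 in limma, against 9.89% of all genes, and 0 of all genes passed. The number 4 occurs in cKO alone, so its block takes up cKO 4 and genotype rests on the other libraries. The median is the same as without cKO 4. For lane 54 rows passed, against 8.11% of all genes higher and 40.0% lower, also with 1 residual degree of freedom. Same-numbered libraries correlated at -0.41, -0.50 and -0.69, and cKO 2 and cKO 3 each correlated best with WT 1, which shares their lane. Every same-numbered pair is split between the lanes, and the correlations take no account of lane. The check therefore cannot tell whether the numbers pair the libraries. Quantile normalization with lane as a term, the fit without cKO 3 and cKO 4 and the class share alternatives were chosen after seeing the data. Without cKO 3 and cKO 4 the median was 1.58 and 0 rows passed.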
